A study of Mus musculus with 8 samples.

Results

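Neural, sensory and epithelial cells each add their own layer of exon choice to messenger RNA, set by RNA-binding proteins, some made in few cell types and some, such as Ptbp1 and Rbfox2, made widely. The genes described here are 9 such splicing regulators and Rest, a transcriptional repressor that is itself a splicing target of Srrm3 and Srrm4. They were chosen by name, as a functional group, and not by their values, although earlier results of these data were known. All 10 were found by symbol among the 78317 genes of the deposited expression table, and all 10 were among the 17811 genes that passed the filter of a mean of at least 1 TPM (transcripts per 1000000, a level scaled for transcript length and library) over the libraries.

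The libraries were made from polyadenylated RNA of the cochlear basilar membrane of mice at postnatal day 6. On this sheet sit the sensory hair cells, among rows of supporting cells. The 4 homo libraries carry the genotype tag of a Dnajc17 conditional knockout, and the 4 hete libraries are tagged as wild type although their titles read hete, so whether the controls carry a mutant allele cannot be told from the labels. Which promoter drives the deletion, which part of the gene is lost and the strain background were not given in the sources used here. Nor do the labels say that the libraries are separate animals, so the p-values rest on a spread between libraries that may be technical. Dnajc17 codes for a co-chaperone of the DnaJ family, which the title of the study links to splicing in hair cells. Its gene-level value was 29.33, 27.65, 31.08 and 18.04 TPM in homo libraries and 26.51, 25.45, 25.09 and 22.06 TPM in hete libraries (log2 fold change 0.07 with an SE of 0.15; adjusted p = 0.969 in limma-trend). The groups overlapped, so a value summed over the whole gene does not check the labels.

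In the mouse, Srrm4 promotes the inclusion of very short exons in neurons and hair cells, and its loss deafens the Bronx waltzer mouse. An exon of Rest that Srrm3 and Srrm4 activate ends the repressor's reading frame early, which releases the genes that Rest silences elsewhere. Ptbp1 represses neural exons in most cells, and Ptbp2, its neural relative, takes over part of that task in young neurons. Esrp1 and Esrp2 set epithelial isoforms such as that of the receptor Fgfr2, while Rbm24 acts in muscle and in hair cells, and Nova1 and Rbfox2 bind short motifs beside regulated exons.

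Short exons also tell apart annotated transcripts of 4 of these regulators themselves. In the GENCODE M21 annotation 4 of the 10 genes have transcripts marked for nonsense-mediated decay, the pathway that destroys messages with an early stop codon, and each of the 4 has an exon that separates a decay transcript from a coding one. For Ptbp1 and Ptbp2 the exon is 34 bases long and lies in the coding transcripts, and its skipping gives the decay transcript. For Srrm3 and Srrm4 the exons are 20 and 16 bases long and it is their inclusion that gives the decay transcript. None of the 4 lengths is a multiple of 3. They are shown because they are what a gene-level TPM cannot resolve. The Ptbp1 and Ptbp2 exons match at 26 of 34 bases (76.5%), and capitals mark the 8 positions at which they differ.
Ptbp1: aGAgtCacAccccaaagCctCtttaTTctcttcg
Ptbp2: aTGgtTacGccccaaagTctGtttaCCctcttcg
The Srrm3 and Srrm4 exons are given in lower case throughout.
Srrm3: gaggaagtgccactttattg
Srrm4: gaggagtccttgcttg

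On GRCm38, the build of that annotation, the exons lie at chr10:79862014-79862047 on the plus strand for Ptbp1, chr3:119724612-119724645 on the minus strand for Ptbp2, chr5:135867127-135867146 on the plus strand for Srrm3 and chr5:116454673-116454688 on the minus strand for Srrm4. The authors' files are on another build, GRCm39, so these positions serve only to place the exons. The authors' deposited table of alternative splicing lists 1884 events of the skipped-exon type (column JC) for the comparison of homo with hete, without gene names or values per library, so inclusion of these exons, or of the Rest exon, was not analysed here. What follows concerns the summed transcripts of each gene.

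The 10 genes spanned a wide range of levels. By their mean over the 8 libraries the order was Ptbp1 (213.7 TPM), Ptbp2 (59.2), Rbfox2 (54.0), Rbm24 (38.1), Esrp1 (25.6), Rest (19.3), Srrm3 (7.35), Esrp2 (6.04), Nova1 (2.52) and Srrm4 (2.19), with a 97.4-fold gap between the first and the last. Of the 9 neighbouring pairs in this order, 4 had ranges that overlapped over the libraries. Ptbp2 was above Rbfox2 in 6 of 8 libraries, Srrm3 above Esrp2 in 7 and Nova1 above Srrm4 in 3, while Esrp1 was above Rest in all 8 although their ranges touched. The mean of Ptbp1 was at or above that of 96.8% of tested genes, that of Rest at or above 58.1% and that of Srrm4 at or above 15.4%. In bulk tissue, fewer cells of a type and less RNA per cell cannot be told apart, so a low mean may come from many cells or few.

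**Figure D1:**
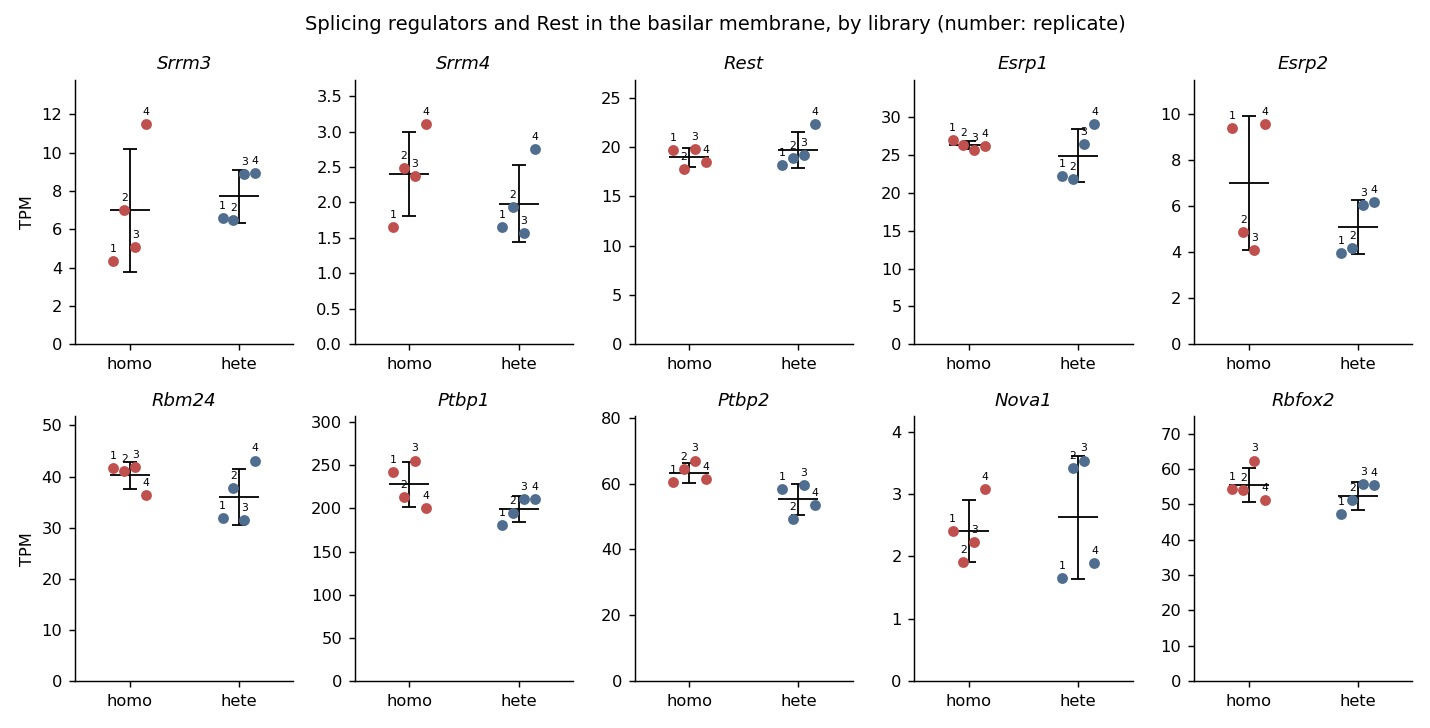
TPM (y axis, from 0) of the 10 genes in homo (left) and hete (right) libraries. Points are single libraries with their replicate number, and the bar and whiskers are the mean and SD of 4. Only Ptbp2 has all 4 homo points (60.34 to 66.99 TPM) above all 4 hete points (49.35 to 59.42 TPM).

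None of the 10 genes passed the test for a difference between homo and hete libraries. The test was limma-trend on log2(TPM + 1) over all 17811 genes, with Benjamini-Hochberg adjustment and a threshold of 0.05. It called 0.0112% of the tested genes, Metap1d as higher and the gene model Gm4353 as lower, both named after their values were seen. Adjusted p for the 10 genes ran from 0.758 for Ptbp2 to 0.98 for Nova1. At an unadjusted p under 0.05 stood 1 of the 10, against 6.05% of all tested genes. By sign alone 7 of the 10 had a positive log2 fold change and 3 a negative one, where 56.3% of all tested genes were positive. The median log2 fold change was 0.13 for the 10 genes and 0.02 for all tested genes, and the median absolute log2 fold change was 0.18 and 0.09.

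**Figure D2:**
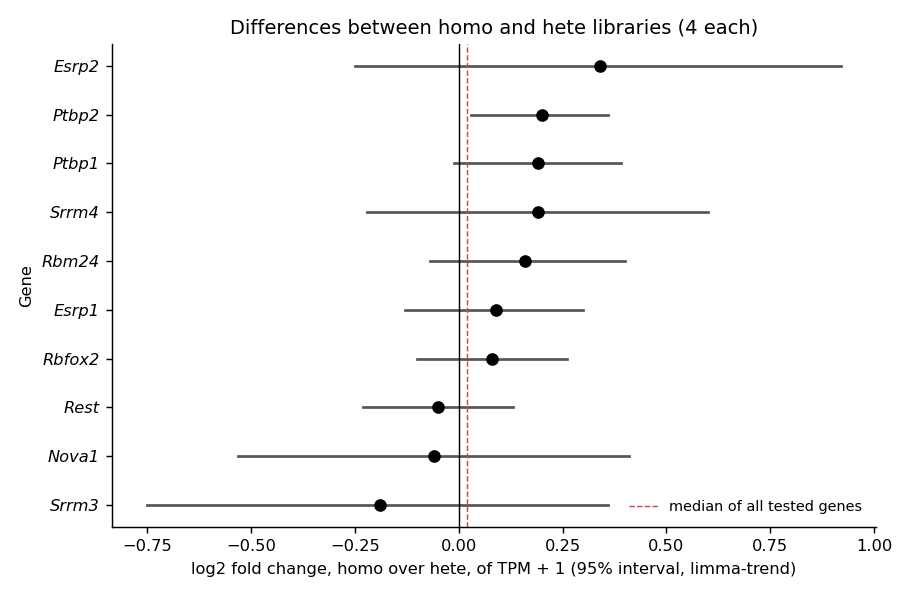
Log2 fold change of TPM + 1 (x axis), homo over hete, for each gene (y axis), from the fit on 4 libraries a group. Points are estimates, lines 95% intervals and the dashed line the median of all tested genes (0.02). The interval of Ptbp2 (0.03 to 0.36) alone does not reach 0, and those of Esrp2 (-0.25 to 0.92) and Srrm3 (-0.75 to 0.36) are the widest.

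The polypyrimidine tract binding proteins came nearest to a difference. Ptbp2 (ENSMUSG00000028134, chromosome 3) had 60.34, 64.49, 66.99 and 61.3 TPM in homo libraries and 58.33, 49.35, 59.42 and 53.55 TPM in hete libraries. The groups did not overlap, with homo above hete, but the gap between the lowest homo and the highest hete library was under 1 TPM. Of all tested genes, 2.58% had all 4 homo values above all 4 hete values, whatever the gap. The means were 63.3 ± 3.04 TPM in homo and 55.2 ± 4.64 TPM in hete (SD, n = 4 each; log2 fold change 0.20, SE 0.07, 95% interval 0.03 to 0.36; limma-trend, unadjusted p = 0.0231, adjusted p = 0.758). After median-ratio scaling of the libraries the groups overlapped, at 58.0 to 65.7 in homo and 49.8 to 61.8 in hete on the scaled TPM, with a log2 fold change of 0.17. Of 8 supporting cell markers, 3 (Otog, Tectb and Tecta) had every homo value above every hete value, while 5 overlapped between groups and Hes5 had a log2 fold change of -0.46. Their summed level was 5362 to 5758 TPM in homo and 4507 to 4913 TPM in hete, most of it Tectb and Tecta. Without Tectb and Tecta it was 225.3 to 263.9 TPM in homo and 196.9 to 263.0 TPM in hete, which overlap. Other cell types differed in sign as well. All 10 neuron markers had a positive log2 fold change (median 0.22), and 8 of the 11 tested hair cell markers had a negative one. The part of supporting cells, neurons or other cells in the Ptbp2 values was not tested.

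Ptbp1 (ENSMUSG00000006498, chromosome 10), the highest of the 10, had 242.76, 212.77, 255.61 and 200.22 TPM in homo libraries and 180.33, 195.04, 211.49 and 211.3 TPM in hete libraries. Homo replicates 1 to 3 were above every hete library and homo replicate 4 lay among them. Its means were 227.8 ± 25.7 TPM in homo and 199.5 ± 14.9 TPM in hete (SD, n = 4 each; log2 fold change 0.19, SE 0.09, 95% interval -0.01 to 0.39; limma-trend, adjusted p = 0.855). With homo replicate 4 left out, the log2 fold change reached 0.25 and the groups no longer overlapped. The share of all tested genes without overlap was not taken for that setting. Since Ptbp1 acts on the level of Ptbp2 through the exon shown above, the ratio of both was taken within each library. Ptbp2 over Ptbp1 was 0.249, 0.303, 0.262 and 0.306 in homo libraries and 0.323, 0.253, 0.281 and 0.253 in hete libraries. The ratio overlapped fully, with means of 0.28 ± 0.029 in homo and 0.278 ± 0.0332 in hete (SD, n = 4 each, no test).

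The Srrm genes, activators of short neural exons, were low and varied between libraries. Srrm3 (ENSMUSG00000039860, chromosome 5) had 4.34, 7.02, 5.06 and 11.5 TPM in homo libraries and 6.58, 6.48, 8.87 and 8.94 TPM in hete libraries. The homo libraries held both the 2 lowest values and the highest. Means were 6.98 ± 3.22 TPM in homo and 7.72 ± 1.37 TPM in hete (SD, n = 4 each; log2 fold change -0.19, SE 0.25, 95% interval -0.75 to 0.36; limma-trend, adjusted p = 0.939). On the scale of the values plus 1, that interval spans a ratio of 0.594 to 1.29 for homo over hete. The log2 fold change stood at -0.44 with homo replicate 4 left out, and at -0.03 with homo replicate 1 left out.

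Srrm4 (ENSMUSG00000063919, chromosome 5), the gene mutated in Bronx waltzer mice, had 1.66, 2.48, 2.37 and 3.11 TPM in homo libraries and 1.66, 1.94, 1.57 and 2.76 TPM in hete libraries. The groups overlapped, and replicate 4 was the highest library of each. The means were 2.4 ± 0.594 TPM in homo and 1.98 ± 0.542 TPM in hete (SD, n = 4 each; log2 fold change 0.19, SE 0.18, 95% interval -0.22 to 0.60; limma-trend, adjusted p = 0.911). The log2 fold change was 0.09 with homo replicate 4 left out and 0.31 with hete replicate 4 left out. With levels this near the pseudocount of 1, the log2(TPM + 1) scale understates a ratio of TPM.

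Rest (ENSMUSG00000029249, chromosome 5), which silences neuronal genes through the RE1 element, varied little between libraries. It had 19.68, 17.8, 19.8 and 18.46 TPM in homo libraries and 18.2, 18.91, 19.21 and 22.34 TPM in hete libraries. The groups overlapped, and hete replicate 4 was the highest of the 8. Means were 18.9 ± 0.969 TPM in homo and 19.7 ± 1.83 TPM in hete (SD, n = 4 each; log2 fold change -0.05, SE 0.08, 95% interval -0.23 to 0.13; limma-trend, adjusted p = 0.955). It stood at 0.01 with hete replicate 4 left out. The spread of Rest within groups, as an SD on the log2 scale, was at or above that of 18.6% of tested genes, where that of Srrm3 was at or above 89.6%.

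Set against Rest in the same library, Srrm3 ranged more widely in homo than in hete. Srrm3 over Rest was 0.221, 0.394, 0.256 and 0.623 in homo libraries and 0.362, 0.343, 0.462 and 0.4 in hete libraries. Every hete ratio lay inside the homo range. Srrm4 over Rest was 0.0843, 0.139, 0.12 and 0.168 in homo libraries and 0.0912, 0.103, 0.0817 and 0.124 in hete libraries, which overlap as well. The ratios were not tested.

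**Figure D3:**
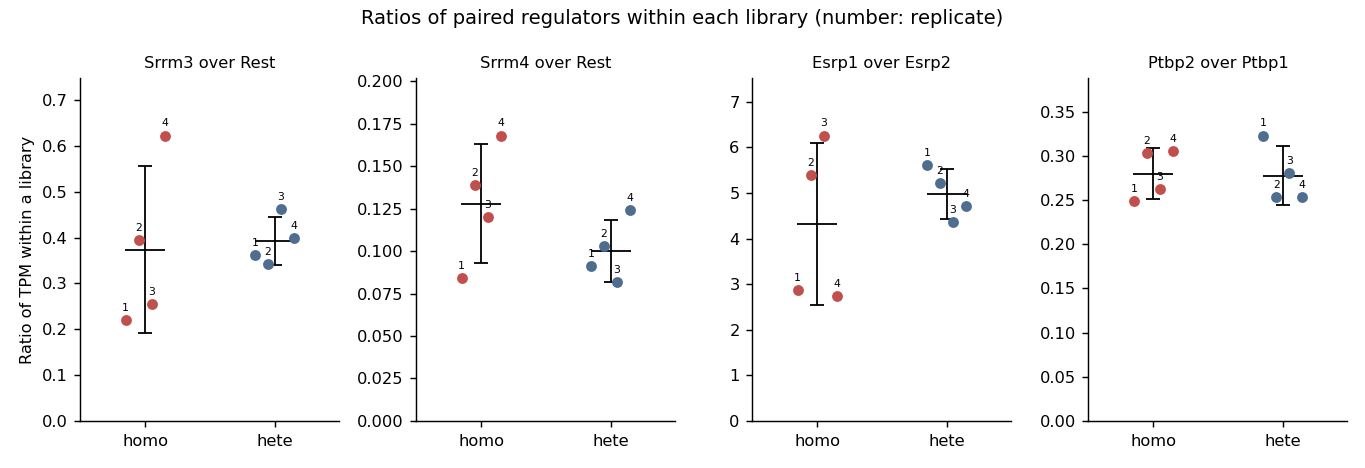
Ratios of TPM within a library (y axes, from 0) for 4 pairs of regulators, homo left and hete right. Points are libraries with their replicate number, with the mean and SD of 4. Srrm3 over Rest spans 0.221 to 0.623 in homo and 0.343 to 0.462 in hete, and Esrp1 over Esrp2 spans 2.74 to 6.26 in homo and 4.37 to 5.61 in hete.

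The corepressors that Rest recruits gave no call. Of 13 listed, 13 were tested, 10 had a positive and 3 a negative log2 fold change (median 0.07, against 0.02 for all tested genes), and 0 were called by limma-trend. The histone methyltransferase gene Ehmt2 had 94.97, 104.06, 105.99 and 102.28 TPM in homo libraries and 83.18, 93.05, 96.22 and 87.74 TPM in hete libraries (log2 fold change 0.18, SE 0.06; unadjusted p = 0.0219, adjusted p = 0.746). It was the 1 corepressor with an unadjusted p under 0.05, and the lowest homo library lay below the highest hete library. Kdm1a, a histone demethylase, averaged 70.2 ± 3.09 TPM in homo and 64.9 ± 3.74 TPM in hete (SD, n = 4 each; log2 fold change 0.11, SE 0.06). Phf21a, a reader subunit of the same complex, averaged 48.0 ± 5.95 TPM in homo and 42.3 ± 4.19 TPM in hete (SD, n = 4 each; log2 fold change 0.18, SE 0.10), and its log2 fold change was 0.10 without homo replicate 3. The core subunit Rcor1, named after its values were seen, stood at 18.6 ± 0.479 TPM in homo and 18.6 ± 2.2 TPM in hete (SD, n = 4 each).

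Among neuronal genes known as targets of Rest, none passed the test either. Of 15 listed, 13 passed the filter and Bdnf and Vgf did not. Of the 13, 10 had a positive and 3 a negative log2 fold change (median 0.06). Of all tested genes, 56.3% were positive (median 0.02). Of the 13, 0 were called by limma-trend, and 0 had an unadjusted p under 0.05. Stmn2, a tubulin-binding protein of growing axons, had 30.8, 26.23, 22.67 and 43.38 TPM in homo libraries and 15.22, 36.63, 27.81 and 14.64 TPM in hete libraries (log2 fold change 0.43, SE 0.33; adjusted p = 0.888). The groups overlapped, and hete replicates 1 and 4 were the lowest. Its log2 fold change was 0.25 without hete replicate 4 and 0.67 without hete replicate 2. The sodium channel gene Scn2a averaged 2.87 ± 0.635 TPM in homo and 3.32 ± 0.713 TPM in hete (SD, n = 4 each; log2 fold change -0.16, SE 0.16). The cadherin gene Celsr3 averaged 1.22 ± 0.533 TPM in homo and 1.49 ± 0.24 TPM in hete (SD, n = 4 each; log2 fold change -0.19, SE 0.20). A left-out library moved Scn2a between -0.26 (homo replicate 4) and -0.06 (hete replicate 2), and Celsr3 between -0.34 (homo replicate 4) and -0.11 (homo replicate 1).

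The libraries also differed in the markers of neurons, where the low neural regulators are known to act. Summed over 10 neuron markers, TPM was 337.4, 339.2, 275.1 and 488.3 in homo libraries and 222.4, 382.0, 353.3 and 276.7 in hete libraries. Homo replicate 4 was the highest library for this sum and for Srrm3 and Srrm4, and hete replicate 1 was the lowest for the sum and for Nova1. For Srrm3 and Srrm4 the other libraries did not keep this order. Hete replicate 2, with the next highest sum, had the lowest Srrm3 of the hete libraries (6.48 TPM). Hete replicate 4, with a low sum, had 8.94 TPM of Srrm3 and 2.76 TPM of Srrm4. Nova1 was highest in the libraries with the highest sums: hete replicate 3 (3.54 TPM), hete replicate 2 (3.42 TPM) and homo replicate 4 (3.08 TPM). Homo replicate 2, next in the sum, had 1.91 TPM of Nova1, below homo replicate 3 (2.23 TPM). All 10 neuron markers had a positive log2 fold change (median 0.22), where 56.3% of all tested genes were positive (median 0.02). The log2 fold change ran from 0.02 to 0.16 for Nefm, Prph, Tubb3, Nefl and Snap25, and from 0.29 to 0.43 for the others. Of the 10, 3 (Syt1, Isl1 and Ntrk3) had an unadjusted p under 0.05, against 6.05% of all tested genes, and 0 were called by limma-trend. Only Syt1 had every homo value above every hete value, which held for 2.58% of all tested genes. The list shares Snap25, Tubb3 and Stmn2 with the Rest targets. Summed over 12 hair cell markers, TPM was 291.6, 262.1, 217.2 and 266.5 in homo libraries and 330.2, 276.9, 342.0 and 474.1 in hete libraries. Of the 11 tested hair cell markers, 8 had a negative log2 fold change (median -0.10, against 0.02 for all tested genes). An unadjusted p under 0.05 was found for 2 (Otof and Ocm), against 6.05% of all tested genes, and 0 were called by limma-trend. Atoh1, the transcription factor of early hair cells, averaged under 1 TPM. Ocm, which codes for a calcium-binding protein of outer hair cells, had 57.53 to 121.98 TPM in homo and 100.86 to 277.77 TPM in hete (log2 fold change -0.92). Without Ocm the sum was 159.6 to 173.8 TPM in homo and 160.8 to 196.3 TPM in hete. Markers of Schwann and satellite glia summed to 597.7 to 1248 TPM in homo and 602.5 to 1066 TPM in hete, and all 6 had a positive log2 fold change (median 0.22). Markers of mesenchyme and fibrocytes summed to 2095 to 3033 TPM in homo and 2169 to 2660 TPM in hete, and those of endothelium to 55.3 to 76.7 TPM in homo and 57.8 to 77.0 TPM in hete. The part of these cell types in the values of Srrm3, Srrm4 and Nova1 was not tested.

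**Figure D4:**
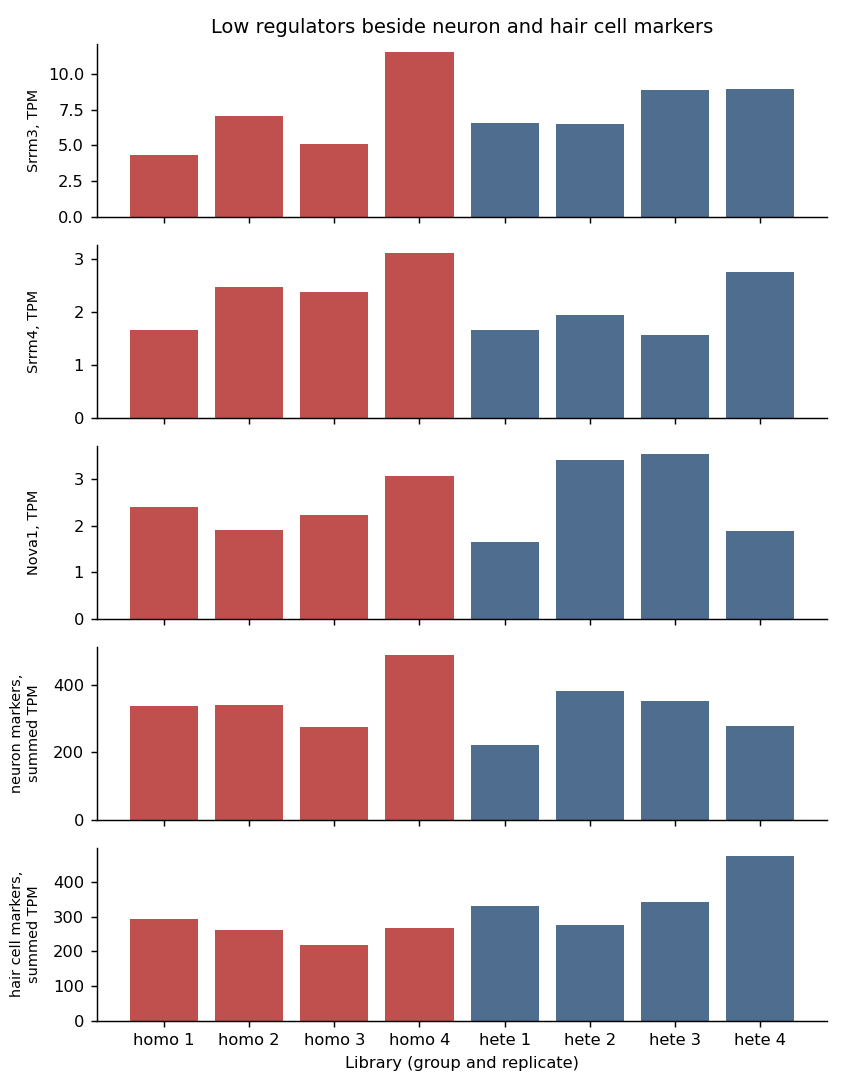
Bars give the TPM of Srrm3, Srrm4 and Nova1 and the summed TPM of 10 neuron and 12 hair cell markers (y axes, from 0) in each library (x axis), homo left and hete right. Homo replicate 4 is highest for Srrm3 (11.5 TPM), Srrm4 (3.11 TPM) and the neuron markers (488.3 TPM), and hete replicate 4 is highest for the hair cell markers (474.1 TPM).

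Nova1 (ENSMUSG00000021047, chromosome 12), a regulator of neuronal exons, had 2.4, 1.91, 2.23 and 3.08 TPM in homo libraries and 1.66, 3.42, 3.54 and 1.89 TPM in hete libraries. The hete libraries split into a higher and a lower pair that enclosed every homo value. Means were 2.4 ± 0.494 TPM in homo and 2.63 ± 0.99 TPM in hete (SD, n = 4 each; log2 fold change -0.06, SE 0.21, 95% interval -0.53 to 0.41; limma-trend, adjusted p = 0.98). The sign turned without hete replicate 2 (0.05), hete replicate 3 (0.06) or homo replicate 2 (0.01).

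Rbfox2 (ENSMUSG00000033565, chromosome 15), the broadly expressed member of its family, had 54.3, 54.12, 62.4 and 51.3 TPM in homo libraries and 47.17, 51.27, 55.79 and 55.38 TPM in hete libraries. Homo replicate 3 was the highest and hete replicate 1 the lowest of 8 otherwise interleaved values. Means were 55.5 ± 4.78 TPM in homo and 52.4 ± 4.04 TPM in hete (SD, n = 4 each; log2 fold change 0.08, SE 0.08, 95% interval -0.10 to 0.26; limma-trend, adjusted p = 0.914). The log2 fold change was 0.03 without hete replicate 1 and 0.12 without homo replicate 4. Its neural relatives, named after their values were seen, were far lower per length, with mean levels over the 8 libraries of 2.25 TPM for Rbfox1 and 4.17 TPM for Rbfox3.

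Rbm24 (ENSMUSG00000038132, chromosome 13), which in mice regulates exons of hair bundle genes such as Cdh23, had 41.66, 41.13, 41.88 and 36.32 TPM in homo libraries and 31.94, 37.66, 31.4 and 43.13 TPM in hete libraries. Homo replicates 1 to 3 lay close together above 3 of the hete libraries, and hete replicate 4 was the highest of all. Means were 40.2 ± 2.64 TPM in homo and 36.0 ± 5.51 TPM in hete (SD, n = 4 each; log2 fold change 0.16, SE 0.10, 95% interval -0.07 to 0.40; limma-trend, adjusted p = 0.87). Rbm24 is also a gene of muscle, and all 8 listed muscle markers averaged under 1 TPM, with Myod1 listed at 0 in every library. Summed muscle markers were 0.98 to 2.97 TPM in homo and 0.86 to 2.1 TPM in hete. Hete replicate 4 was the highest library for Rbm24 and for the hair cell marker sum. Hete replicates 3 and 1, next in that sum, had the lowest Rbm24 values. Homo replicate 3, lowest in the sum, had 41.88 TPM of Rbm24. The place of hete replicate 1 rested on Ocm. Without Ocm the sum was 160.8 TPM in hete replicate 1, close to the 159.6 TPM of homo replicate 3. It was then 182.1 TPM in hete replicate 3 and 196.3 TPM in hete replicate 4. The part of muscle or hair cells in the Rbm24 values was not tested. A left-out library moved the log2 fold change of Rbm24 between 0.10 (hete replicate 3) and 0.25 (hete replicate 4).

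The epithelial regulators differed from each other in how steady they were. Esrp1 (ENSMUSG00000040728, chromosome 4) had 26.98, 26.32, 25.66 and 26.23 TPM in homo libraries and 22.21, 21.81, 26.43 and 29.13 TPM in hete libraries. The homo values were tightly grouped inside the wider hete range. Means were 26.3 ± 0.541 TPM in homo and 24.9 ± 3.51 TPM in hete (SD, n = 4 each; log2 fold change 0.09, SE 0.10, 95% interval -0.13 to 0.30; limma-trend, adjusted p = 0.929). Epithelial markers summed to 843.9 to 939.4 TPM in homo and 795.4 to 981.7 TPM in hete. The log2 fold change of Esrp1 was 0.03 without hete replicate 2 and 0.16 without hete replicate 4.

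Esrp2 (ENSMUSG00000084128, chromosome 8) had 9.4, 4.88, 4.1 and 9.57 TPM in homo libraries and 3.96, 4.18, 6.05 and 6.18 TPM in hete libraries. Homo replicates 1 and 4 were the highest of the 8, while homo replicates 2 and 3 lay among the hete values. Means were 6.99 ± 2.9 TPM in homo and 5.09 ± 1.19 TPM in hete (SD, n = 4 each; log2 fold change 0.34, SE 0.26, 95% interval -0.25 to 0.92; limma-trend, adjusted p = 0.889). This was the largest of the 10 log2 fold changes in size, with a spread within groups at or above that of 90.5% of tested genes. Left-out libraries moved it between 0.18 and 0.53. Esrp1 over Esrp2 was 2.87, 5.39, 6.26 and 2.74 in homo libraries and 5.61, 5.22, 4.37 and 4.71 in hete libraries, so that homo replicates 1 and 4 had the lowest ratios.

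Other tissue-restricted splicing regulators, a list that holds the relatives of these genes, gave no call. Of 23 listed, 21 were tested, of which 14 had a positive and 7 a negative log2 fold change (median 0.09). Of all tested genes, 56.3% were positive (median 0.02). An unadjusted p under 0.05 was found for 2 of the 21, against 6.05% of all tested genes. Celf2, an RNA-binding protein of brain, heart and lymphocytes, had 30.55, 28.53, 33.34 and 36.67 TPM in homo libraries and 24.52, 28.82, 27.8 and 26.41 TPM in hete libraries (log2 fold change 0.25, SE 0.09; limma-trend, unadjusted p = 0.0191, adjusted p = 0.735). Homo replicate 2 lay just below hete replicate 2, and the other homo values were above every hete value. Khdrbs3, a STAR-family splicing regulator, averaged 25.5 ± 4.06 TPM in homo and 20.7 ± 3.03 TPM in hete (SD, n = 4 each), a log2 fold change of 0.29 with an SE of 0.13 (unadjusted p = 0.0443, adjusted p = 0.815), which was 0.19 without homo replicate 1. Ptbp3, the third Ptbp paralog, averaged 27.4 ± 6.43 TPM in homo and 23.1 ± 1.17 TPM in hete (SD, n = 4 each), a log2 fold change of 0.21 with an SE of 0.13 (adjusted p = 0.87). Homo replicate 1, at 36.94 TPM, was its highest library, and leaving it out gave a log2 fold change of 0.07.

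For 5 of the genes the 3 tested genes of most similar pattern were looked up among 14058 named genes without pseudogenes, as Pearson's r of log2(TPM + 1) over the 8 libraries. These are descriptions of 8 points that share library composition. Closest to Srrm3 were Fam241b (0.975), Adra2c (0.946) and Jund (0.941), and closest to Srrm4 were Abhd17a (0.979), Arl4c (0.966) and Aldh3b1 (0.962). Rest was most like Tpcn1 (0.987), Pde4a (0.985) and Mdm2 (0.981), and 174 genes had an r above 0.9 with it. Esrp1 was most like Atp2a2 (0.983), Rhpn2 (0.968) and Parp4 (0.967), and 59 genes had an r above 0.9 with it. Nova1 was most like Eef2k (0.962), Igsf21 (0.936) and Plscr4 (0.936). Above 0.9 stood 13 genes for Srrm3, 14 for Srrm4 and 19 for Nova1.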

How the data were processed

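The authors deposited TPM per gene, rounded to 2 decimals, with every library adding up to about 1000000. Fastp, HISAT2, StringTie, RSEM, DESeq2 and GRCm39 are named without roles or versions, per the submitters' processing notes, and a stranded mRNA preparation is named per the labels' protocols. Read numbers cannot be had from TPM, which leaves sequencing depth unknown, and values summed over a gene do not separate its isoforms. From these values log2(TPM + 1) was fitted with limma 3.58.1 (trend and robust eBayes) in R 4.3.3, as a comparison of 4 homo with 4 hete libraries without further terms, after a filter of a mean of at least 1 TPM. The p-values were adjusted over all 17811 tested genes. The steps were tested on simulated data. Fold changes are homo over hete.

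The 10 genes and the lists were chosen with earlier results of these data known. The genes named are the 10, up to 3 genes with the smallest p of each of 3 lists, and the 3 genes of most similar pattern to each of Srrm3, Srrm4, Rest, Esrp1 and Nova1, unnamed gene models and pseudogenes left out. Any other gene is said to be named after its values were seen. Marker lists of 8 cell types were used for levels, and a marker gene named singly was picked after its values were seen. Ratios were taken within libraries and not tested. Chromosomes and exons came from GENCODE M21 (GRCm38), with exon sequences read from its transcripts, matched by gene ID and symbol. The authors' deposited table of splicing event numbers was quoted once, and their table of gene ontology terms was not used. Plots used matplotlib 3.10.9 (Python 3.11.15). Alternatives were a pseudocount of 0.1, no filter, at least 5 TPM in 4 libraries, quantile normalization, median-ratio scaling, the replicate number as a block, and each library left out.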

Additional observations from a re-analysis of the deposited data

Results flagged for a closer look

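In homo replicate 4, Rbm24 had 36.32 TPM, set apart below the other homo libraries at 41.13 to 41.88 TPM. Ptbp3 had 36.94 TPM in homo replicate 1, set apart above the other homo libraries at 23.41 to 25.16 TPM. Without that library the log2 fold change of Ptbp3 was 0.07, against 0.21 with it. The gap to the nearest homo library took up 0.865 of the group's range for Rbm24 and 0.871 for Ptbp3, past Dixon's 95% critical value for 4 samples. These were 2 of the 68 groups of 4 libraries examined for 34 named genes, and chance flags about 1 in 20.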

How the results depend on the processing

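None of the 10 genes was called under any of the 14 alternatives, in which their adjusted p ran from 0.714 to 0.999. Of 138 values of their log2 fold changes, 134 kept their sign. The 4 that turned were Rest without hete replicate 4 (0.01) and Nova1 without hete replicate 2 (0.05), hete replicate 3 (0.06) or homo replicate 2 (0.01), and with a library left out Rest ran from -0.08 to 0.01 and Nova1 from -0.2 to 0.06. Among the genes of similar pattern the log2 fold change also changed sign with a library left out: -0.17 to 0.01 for Adra2c, -0.01 to 0.21 for Aldh3b1, -0.14 to 0.03 for Tpcn1, -0.17 to 0.05 for Pde4a, -0.0 to 0.13 for Atp2a2, -0.1 to 0.03 for Eef2k, -0.1 to 0.19 for Igsf21 and -0.08 to 0.12 for Plscr4. The causes were not tested. Srrm4 and Nova1 gave no value with at least 5 TPM in 4 libraries. The number of the 10 without overlap was 0 after median-ratio scaling and 1 to 2 with a library left out, 2 without homo replicate 4. The share of all tested genes was not taken under these settings. Groups also overlap less often when a library is left out, so the rise to 2 cannot be read as a difference. Over all genes, the number higher was 0 with no filter and 0 with the replicate block, and 0 to 3 with a library left out. The number lower was 2 with at least 5 TPM in 4 libraries, and 1 to 3 with a library left out. The replicate numbers are not said to mark litters or days, so they were not taken to pair the libraries. Same-numbered homo and hete libraries had correlations of -0.084 to 0.049 between their deviations from the group means. Differently numbered ones had -0.076 to 0.061. With the replicate block 0 of the 10 genes were called.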

Other observations

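Of the 21 tested regulators on the list of other tissue-restricted splicing genes, 7 were highest in homo replicate 4, the library with the most neuron marker RNA: Celf2, Celf3, Elavl2, Elavl3, Elavl4, Rbfox1 and Rbfox3. A further 5 each were highest in homo replicate 1 and in hete replicate 4, with the neural genes Celf4 (7.3 TPM) and Nova2 (1.65 TPM) in hete replicate 4, and Celf5 was highest in hete replicate 2 (1.74 TPM). The part of neurons in these peaks was not tested, and the share of all tested genes highest in each library was not taken. The genes given with values here were picked after those were seen. Elavl4, a stabilizer of neuronal messages, had 13.88 TPM in homo replicate 4, 4.28 to 7.81 TPM in the other homo libraries and 3.29 to 8.8 TPM in hete libraries. Rbfox3, which encodes the neuronal nuclear antigen NeuN, had 7.16 TPM in homo replicate 4, 2.83 to 3.34 TPM in the other homo libraries and 3.07 to 5.37 TPM in hete libraries. Of the listed relatives, Msi1, an RNA-binding protein of neural progenitors, was the highest. It had 103.58, 97.71, 90.13 and 99.82 TPM in homo libraries and 80.48, 94.65, 96.99 and 127.91 TPM in hete libraries, with both the lowest and the highest value in hete.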
